A study of Mus musculus with 4 samples.

Results

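Neurexins, neuroligins and leucine-rich repeat transmembrane proteins (LRRTMs) are adhesion proteins that face each other across the synaptic cleft. The genes described here are the neurexins Nrxn2 and Nrxn3, the neuroligins Nlgn1, Nlgn2 and Nlgn3, and the LRRTM genes Lrrtm1, Lrrtm2, Lrrtm3 and Lrrtm4. The rule that picks them uses their names and no measured value, although earlier results of these data were known when they were chosen. They are 9 of the 29224 genes in the deposited tables. All 9 passed the filter on low counts. RNA was sequenced from the cerebral cortex of P5 mice, from cells isolated with magnetic beads that carry the ACSA-1 antibody to GLAST, an astrocyte glutamate transporter. The Ezh2 f/f group (2 libraries) carried floxed alleles of Ezh2, the catalytic subunit of Polycomb repressive complex PRC2, which places the repressive histone mark H3K27me3. The Ezh2 cKO group (2 libraries), in full Ezh2 cKO-Aldh1l1, carried the same floxed alleles and an Aldh1l1-iCre transgene, which drives recombination from the promoter of an astrocyte gene. The comparison asks how the RNA of these cells differed once Ezh2 had been deleted. The sources used here do not say whether the libraries came from separate animals or from pools, so the p-values measure the spread between these libraries, which may be technical.

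As background, neurexins sit on the presynaptic membrane and act as hubs that bind many postsynaptic and secreted ligands. Neuroligins and LRRTMs compete for them from the postsynaptic side, where they recruit scaffold proteins and receptors for glutamate or GABA. Astrocytes are also known to express neuroligins, through which their processes contact neuronal neurexins, so transcripts of these genes in a bead-purified sample can come from astrocytes or from neurons.

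Library totals ranged from 16273308 to 17522152 counts, and a count of 3, the limit that a count of 0 allows, came to 0.171 to 0.184 CPM (counts scaled to library size); the 9 genes had between 77 and 14745 counts in a library. Such limits cover counting error only. The transcript of Ezh2 itself was counted 434 and 327 times in Ezh2 f/f, against 211 and 164 times in Ezh2 cKO (log2 fold change -1.11, SE 0.16, edgeR adjusted p = 3.26e-05). It was lower in both libraries labelled cKO but still counted, and these counts also cover parts of the gene outside the floxed one. Markers of several cell types differed between the groups. Slc1a3, the gene of GLAST and so of the sort itself, was counted 1664 and 1617 times in Ezh2 f/f, against 5334 and 5191 times in Ezh2 cKO. The summed level of 12 astrocyte markers was 869 to 883 CPM in Ezh2 f/f and 3206 to 3533 CPM in Ezh2 cKO, with 10 of 12 higher. Aldh1l1 and Sox9, singled out after their values were seen, were the other 2, with log2 fold changes of -0.15 and -0.06. Pan-neuronal markers were counted in every library, at 6925 to 7405 CPM in Ezh2 f/f and 8720 to 8740 CPM in Ezh2 cKO, with 10 of 12 higher and 1 lower. Excitatory neuron markers summed to 1093 to 1217 and 3666 to 3930 CPM (2 of 7 higher, 3 lower), oligodendrocyte precursor markers to 182.5 to 184 and 533 to 603 CPM (6 of 6 higher), oligodendrocyte markers to 67.9 to 83.5 and 716 to 837 CPM (6 of 6 higher) and microglial markers to 53.0 to 56.2 and 175 to 204 CPM (6 of 6 higher). Progenitor and cycling markers summed to 183 to 201 and 72.8 to 75.4 CPM (6 of 6 lower). Interneuron (2 of 8 higher, 3 lower) and endothelial markers (1 of 6 higher, 1 lower) moved in both directions. None of the markers in these lists was at or under 3 counts in all 4 libraries, and the oligodendrocyte gene Mobp, also singled out afterwards, was at 0 in 1 Ezh2 f/f library. The part of these cell types in the results on the 9 genes was not tested, and in bulk RNA a different number of cells of a type cannot be told apart from a different amount of RNA per cell.

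Of the 9 genes, 7 rose, 1 fell and 1 did not pass the threshold of an adjusted p under 0.05 in edgeR's quasi-likelihood test over 16793 genes. Much of the transcriptome differed between these libraries, since 34.7% of the genes tested were higher in Ezh2 cKO and 33.6% were lower by the same rule, 68.4% in all (70.9% had an unadjusted p under 0.05). The CPM of both Ezh2 cKO libraries lay above both Ezh2 f/f libraries for 7 of the 9 genes and below them for 1, and over all genes tested the shares were 42.8% and 41.5%. The median log2 fold change was 0.70 over the 9 genes and 0.02 over all genes tested. Nrxn3, Lrrtm2 and Lrrtm4 rose at least 2-fold, which 19% of all genes tested did. Lrrtm2 rose most, 3.90-fold, and the log2 fold changes of 93.1% of the genes tested were smaller. Nlgn2, the postsynaptic partner at inhibitory synapses, fell by 27.2%.

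**Figure D1:**
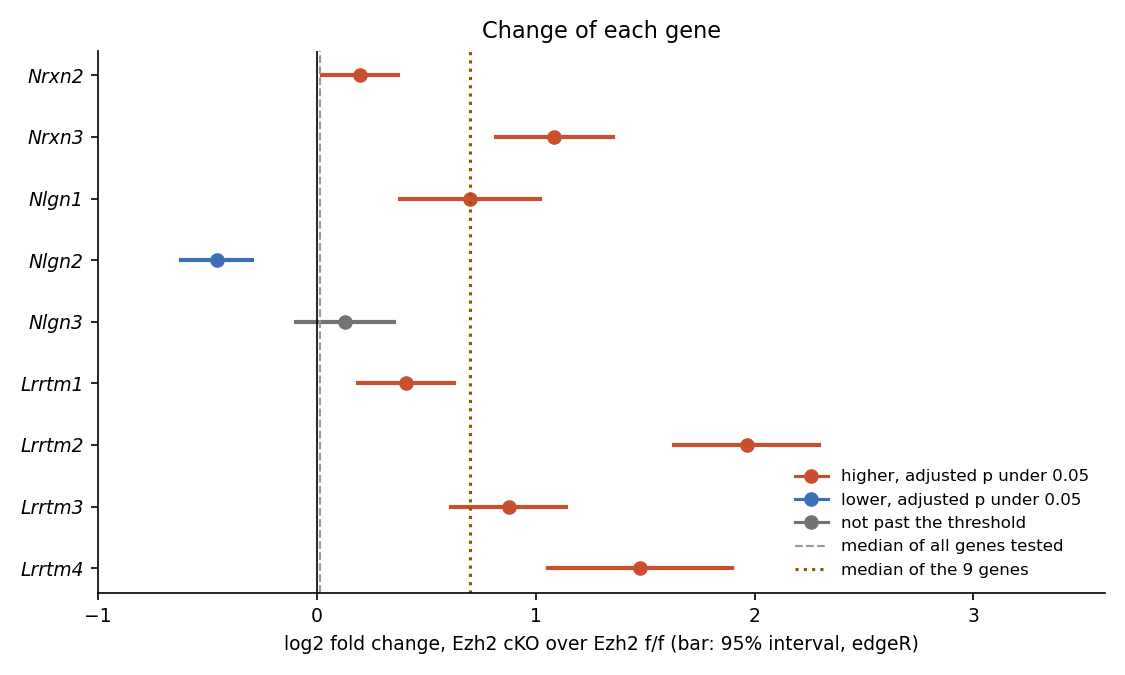
Log2 fold change of each gene, Ezh2 cKO over Ezh2 f/f, from the edgeR fit (2 libraries per group). Points are estimates and bars their 95% intervals, with dashed and dotted lines at the median of all genes tested (0.02) and of the 9 genes (0.70). Nlgn2 lies below 0, the interval of Nlgn3 spans 0, and the other 7 genes lie above it, Lrrtm2 furthest at 1.96.

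Polycomb repression in mammals is known to gather at promoters rich in CpG dinucleotides, so the promoter windows of 3 genes are shown: Nlgn2, the gene that fell, Nlgn1, a gene of the same family that rose, and Lrrtm4, the most raised gene for which a window was used. Windows of 250 bases before and 50 bases after a RefSeq (GRCm38.p6) transcription start were used for 6 of the 9 genes, 10 in all. Each is printed 5′ to 3′ on the gene's own strand, in lower case with every CG in capitals. The Nlgn2 window is chr11:69837735-69838034 on the minus strand, the Nlgn1 window chr3:26331860-26332159 on the minus strand, and the Lrrtm4 window chr6:80018627-80018926 on the plus strand.
Nlgn2: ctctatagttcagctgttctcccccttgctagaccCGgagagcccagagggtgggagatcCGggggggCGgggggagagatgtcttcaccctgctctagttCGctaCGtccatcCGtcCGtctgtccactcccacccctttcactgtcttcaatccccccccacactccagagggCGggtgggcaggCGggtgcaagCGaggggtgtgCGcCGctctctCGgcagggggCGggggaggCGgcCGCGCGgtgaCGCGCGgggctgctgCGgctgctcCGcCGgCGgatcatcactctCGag
Nlgn1: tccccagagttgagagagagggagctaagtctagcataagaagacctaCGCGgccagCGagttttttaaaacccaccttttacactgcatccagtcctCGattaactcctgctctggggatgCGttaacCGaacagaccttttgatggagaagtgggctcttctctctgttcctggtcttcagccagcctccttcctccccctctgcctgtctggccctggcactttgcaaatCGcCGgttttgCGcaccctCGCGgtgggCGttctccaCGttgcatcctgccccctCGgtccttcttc
Lrrtm4: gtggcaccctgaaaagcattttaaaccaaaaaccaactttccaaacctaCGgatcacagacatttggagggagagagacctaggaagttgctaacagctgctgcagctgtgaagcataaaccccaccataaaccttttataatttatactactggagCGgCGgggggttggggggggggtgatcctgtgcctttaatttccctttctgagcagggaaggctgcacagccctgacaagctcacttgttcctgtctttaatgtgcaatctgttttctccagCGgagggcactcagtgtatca
The Nlgn2 window held 26 CpG dinucleotides, a number reached by 16.9% of 32851 such windows. The Nlgn1 window shown held 14, reached by 36.3%, and the Lrrtm4 window shown held 4, reached by 68.6%. These are the first listed starts. The second start of Nlgn1 had 6, reached by 56.4%, and that of Lrrtm4 had 9, reached by 45.8%. The order of Nlgn1 and Lrrtm4 thus depends on the start, while Nlgn2 had more than either at any of these starts. Over the 10 windows of these 6 genes the number ran from 2 to 26 with a median of 8, beside a median of 7 over all windows. Among the windows of genes that rose, the 3 starts of Nrxn3 alone had 2, 6 and 16. No window was used for Nlgn3, nor for Nrxn2 and Lrrtm2, which also rose. The missing windows do not show that RefSeq lists no start for Nlgn3, Nrxn2 or Lrrtm2, and the numbers above do not describe all 9 genes. A link between CpG content and the changes was not tested. The search for 3 motifs covered both strands. The left part of the binding site of the neuronal repressor REST, TTCAGCACC, was in 1 of the 10 windows (the second start of Nlgn1) and in 0.371% of all windows. Its right part, GGACAGC, was in 0 of the 10 and in 6.56% of all, and the TATA box letters TATAAA were in 1 (the Lrrtm4 window above) and in 13.6% of all. A match of letters is a description of these windows and not evidence of binding.

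Levels were compared between genes in FPKM, which scale counts to gene length. Nlgn2 had the highest level in both groups, at 145 ± 1.20 FPKM in Ezh2 f/f and 111 ± 3.35 FPKM in Ezh2 cKO (mean ± SD, n = 2 here and throughout). Among all genes it ranked 276 and 298 in Ezh2 f/f, against 428 and 425 in Ezh2 cKO. Nrxn2 followed with 40.6 ± 2.56 and 49.3 ± 0.203 FPKM, then Lrrtm1 with 23.9 ± 2.57 and 33.6 ± 2.57 FPKM and Nlgn3 with 12.7 ± 1.64 and 14.7 ± 0.998 FPKM. These 4 genes kept their order in both groups, as did Lrrtm3 and Nrxn3 after them. In Ezh2 f/f the lowest genes were Nlgn1, Lrrtm2 and Lrrtm4, at 1.33, 1.12 and 0.827 FPKM on average, and the libraries of each neighbouring pair in the order did not overlap. In Ezh2 cKO the lowest were Lrrtm2, Lrrtm4 and Nlgn1, at 4.62, 2.44 and 2.29 FPKM. There, Nrxn3 and Lrrtm2 overlapped, and so did Lrrtm4 and Nlgn1, so their order is not set by these libraries. Across the 9 genes, Spearman's rho between mean FPKM and log2 fold change was -0.82: the lower genes had the larger increases. That value is a description over 9 genes that share the same 4 libraries.

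**Figure D2:**
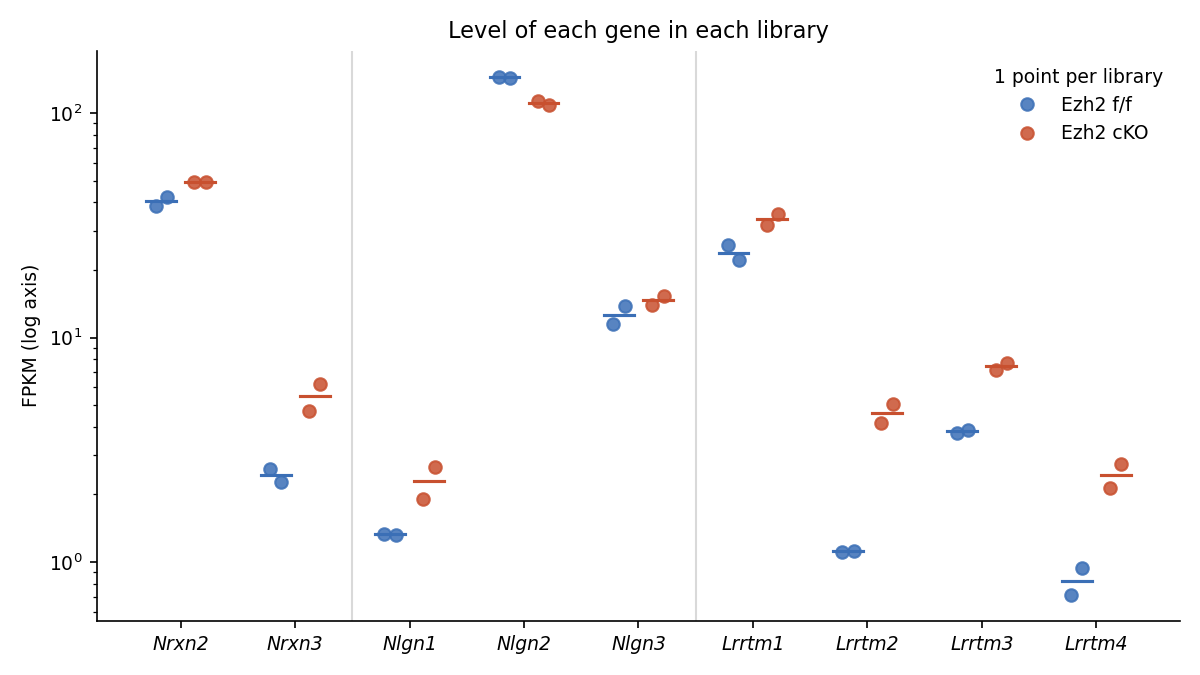
FPKM of each gene (log axis), with 1 point per library and a line at the mean of the 2 libraries of each group. Nlgn2 sits highest, between 109 and 145 FPKM, and the groups of Nlgn3 nearly touch, while the Ezh2 cKO libraries of Lrrtm2 (4.18 and 5.06 FPKM) lie well above its Ezh2 f/f libraries (1.11 and 1.12 FPKM).

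Both neurexin genes rose, Nrxn3 by more than Nrxn2. Nrxn2 (ENSMUSG00000033768) encodes a presynaptic receptor and stood at 549 and 606 CPM in Ezh2 f/f, against 671 and 653 CPM in Ezh2 cKO. The groups did not overlap, although the gap between them was smaller than the distance between the Ezh2 f/f libraries. The change was 1.15-fold (log2 0.20, SE 0.08, edgeR adjusted p = 0.0417). It was the least firm of the 7 increases: it passed the threshold in 5 of 12 alternative analyses, with adjusted p from 0.0129 to 0.173. It did not pass without Ezh2 f/f replicate 1 (log2 0.13, adjusted p = 0.173), without Ezh2 cKO replicate 1 (0.18, adjusted p = 0.155) or without Ezh2 cKO replicate 2 (0.22, adjusted p = 0.0896).

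Nrxn3 (ENSMUSG00000066392), the other presynaptic receptor, stood at 33.9 and 29.7 CPM in Ezh2 f/f, against 58.8 and 76.2 CPM in Ezh2 cKO. Both Ezh2 cKO libraries were well above both controls, and they differed from each other more than the controls did. The rise was 2.12-fold (log2 1.08, SE 0.12, 95% interval 0.82 to 1.35, edgeR adjusted p = 3.21e-06). It passed the threshold in all 12 alternatives, with log2 fold changes from 0.89 to 1.26. On the log2 scale the change of Nrxn3 exceeded that of Nrxn2 by 0.89 (SE 0.15). In FPKM, Nrxn2 was 14.9 and 18.7 times Nrxn3 in Ezh2 f/f, against 10.5 and 7.87 times in Ezh2 cKO.

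The 3 neuroligins went different ways. Nlgn2 (ENSMUSG00000051790), whose protein is found at inhibitory synapses, where it binds gephyrin, stood at 863 and 861 CPM in Ezh2 f/f, against 647 and 607 CPM in Ezh2 cKO. The control libraries were nearly equal and both Ezh2 cKO libraries lay below them. The decrease was to 0.728 of the control level (log2 -0.46, SE 0.08, 95% interval -0.62 to -0.30, edgeR adjusted p = 9.53e-05). All 12 alternatives placed it past the threshold, with log2 fold changes from -0.50 to -0.37. Nlgn2 was thus the most abundant of the 9 genes and the only one of them that fell.

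Nlgn1 (ENSMUSG00000063887), whose protein is concentrated at excitatory synapses, stood at 18.3 and 18.4 CPM in Ezh2 f/f, against 25.3 and 34.3 CPM in Ezh2 cKO. The groups did not overlap, and the Ezh2 cKO libraries differed from each other by more than the lower of them did from the controls. The rise was 1.62-fold (log2 0.70, SE 0.15, edgeR adjusted p = 8.12e-04). It was called in 11 of 12 alternatives (log2 0.47 to 0.90, adjusted p 1.02e-05 to 0.0804), the exception being limma on log2(FPKM + 1) without a filter.

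Nlgn3 (ENSMUSG00000031302), an X-linked gene whose protein is found at both kinds of synapse, stood at 109 and 133 CPM in Ezh2 f/f, against 127 and 137 CPM in Ezh2 cKO. These groups overlapped in CPM; in FPKM, at 11.5 and 13.8 against 14.0 and 15.4, they were barely apart. The log2 fold change was 0.13 (SE 0.10, 95% interval -0.10 to 0.35, edgeR adjusted p = 0.294), so neither a modest rise nor a slight decrease was separated from the spread of the libraries. The value was decided by single libraries: it was -0.0058 (adjusted p = 0.968) without Ezh2 f/f replicate 1 and 0.26 (adjusted p = 0.0372) without Ezh2 f/f replicate 2. Between the neuroligins, the log2 fold change of Nlgn1 exceeded that of Nlgn2 by 1.16 (SE 0.17) and that of Nlgn3 by 0.57 (SE 0.18), and Nlgn3 exceeded Nlgn2 by 0.59 (SE 0.13).

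All 4 LRRTM genes rose, by amounts from 1.33-fold to 3.90-fold. LRRTMs are postsynaptic proteins of excitatory synapses that bind neurexins and help to hold AMPA-type glutamate receptors. Lrrtm2 (ENSMUSG00000071862) had 117 and 110 counts, or 6.85 and 7.00 CPM, in Ezh2 f/f and 436 and 508 counts, or 24.7 and 29.3 CPM, in Ezh2 cKO. The control libraries were nearly equal, and the lower Ezh2 cKO library was far above both. The log2 fold change was 1.96 (SE 0.15, 95% interval 1.63 to 2.29, edgeR adjusted p = 7.39e-08). It ranged from 1.40 to 2.08 over the 12 alternatives, all of them past the threshold.

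Lrrtm4 (ENSMUSG00000052581), whose protein also binds heparan sulphate chains of proteoglycans such as glypicans, had 77 and 94 counts (4.51 and 5.98 CPM) in Ezh2 f/f and 228 and 281 counts (12.9 and 16.2 CPM) in Ezh2 cKO. It was the least counted of the 9 genes in every library, and its groups did not overlap. The rise was 2.78-fold (log2 1.48, SE 0.20, edgeR adjusted p = 1.31e-05), with log2 fold changes from 0.91 to 1.68 over the alternatives, each past the threshold. The difference between Lrrtm2 and Lrrtm4 was 0.49 on the log2 scale with an SE of 0.25. This SE, like those of the other differences between genes, treats genes measured in the same libraries as independent. In FPKM, Lrrtm4 was 0.645 and 0.837 times Lrrtm2 in Ezh2 f/f, against 0.512 and 0.542 times in Ezh2 cKO, so the ratios did not overlap.

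Lrrtm3 (ENSMUSG00000042846) stood at 16.5 and 17.1 CPM in Ezh2 f/f, against 29.9 and 31.7 CPM in Ezh2 cKO. Libraries of the same group were close together and the groups did not overlap. The rise was 1.83-fold (log2 0.88, SE 0.12, edgeR adjusted p = 2.27e-05), past the threshold in all 12 alternatives. Lrrtm1 (ENSMUSG00000060780), the most abundant LRRTM gene here, stood at 80.1 and 69.4 CPM in Ezh2 f/f, against 94.8 and 103 CPM in Ezh2 cKO. Its groups did not overlap. The rise was 1.33-fold (log2 0.41, SE 0.10, edgeR adjusted p = 0.00292), and over the alternatives the adjusted p ran from 3.50e-05 to 0.0516. The threshold was missed without Ezh2 cKO replicate 2 (log2 0.35, adjusted p = 0.0516). The log2 fold change of Lrrtm2 exceeded that of Lrrtm1 by 1.56 (SE 0.18) and that of Lrrtm3 by 1.09 (SE 0.20), and Lrrtm3 exceeded Lrrtm1 by 0.47 (SE 0.16).

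Because the paralogs of each family moved by different amounts, the composition of each family differed between the groups. Shares of the summed FPKM within a library do not depend on how libraries are scaled to each other. With 2 libraries per group an exact permutation test cannot give a p under 0.333, so the shares are described without one. Among the LRRTM genes, Lrrtm1 made up 82.1% and 78.8% of the summed FPKM in Ezh2 f/f, against 70.2% and 69.5% in Ezh2 cKO. The share of Lrrtm2 was 3.54% and 4.00% in Ezh2 f/f, against 9.23% and 9.92% in Ezh2 cKO, and that of Lrrtm4 was 2.28% and 3.35%, then 4.73% and 5.38%. The dominant LRRTM gene was the same in all 4 libraries, but Lrrtm1 exceeded Lrrtm2 by 23.2 and 19.7 times in Ezh2 f/f and by 7.61 and 7.01 times in Ezh2 cKO. The summed FPKM of the 4 LRRTM genes was 31.3 and 28.1 in Ezh2 f/f, against 45.3 and 51.0 in Ezh2 cKO, 1.62 times as high on average. Sums of FPKM, here and for the neuroligins, lack the scaling factors of the edgeR fit. Ratios of these sums are therefore not on the scale of the edgeR fold changes.

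The neuroligins had the opposite direction in sum and the same kind of shift in composition. Their summed FPKM was 158 and 159 in Ezh2 f/f, against 130 and 127 in Ezh2 cKO, or 0.810 of the control mean, since Nlgn2 dominates the sum. The share of Nlgn2 was 91.9% and 90.5% in Ezh2 f/f, against 87.8% and 85.8% in Ezh2 cKO. Nlgn3 took 7.26% and 8.69%, then 10.8% and 12.1%, although its own level was not shown to change. Nlgn1 took 0.841% and 0.833%, then 1.48% and 2.09%, and in FPKM Nlgn2 was 109 times Nlgn1 in both Ezh2 f/f libraries and 59.4 and 41.0 times in Ezh2 cKO. For the 2 neurexins, Nrxn3 took 6.30% and 5.07% in Ezh2 f/f, against 8.71% and 11.3% in Ezh2 cKO. In each family, the most abundant paralog had a smaller share in both Ezh2 cKO libraries than in either control library.

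**Figure D3:**
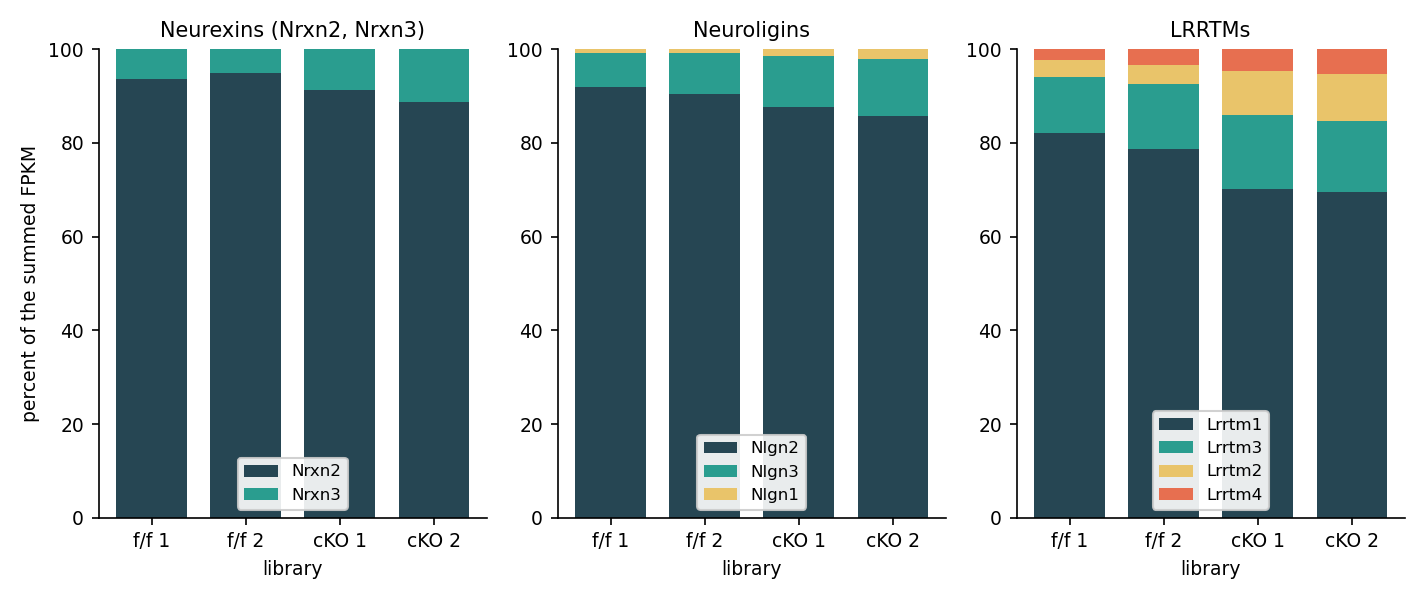
Share of each paralog in the summed FPKM of its family (percent, axis from 0 to 100) in each of the 4 libraries. Nrxn2, Nlgn2 and Lrrtm1 fill most of their bars in every library, and their shares are lower in both Ezh2 cKO libraries, most visibly for Lrrtm1 (82.1% and 78.8% against 70.2% and 69.5%).

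In the deposited coordinates, several of the genes overlap others, and whether the counting used strand is not stated. These coordinates are printed as deposited; the processing notes name mm9, but the positions were not matched to a known build here. Nrxn2 lies at chr19:6468761-6594199 and Nrxn3 at chr12:88689646-90301709, both on the plus strand, and Nlgn1 at chr3:25480379-26386609 and Nlgn2 at chr11:69713948-69728610, both on the minus strand. Nlgn3 lies at chrX:100342774-100369569, Lrrtm1 at chr6:77219672-77234774 and Lrrtm4 at chr6:79995860-80787124 on the plus strand, and Lrrtm2 at chr18:35342056-35348077 and Lrrtm3 at chr10:63764251-63926056 on the minus strand. Lrrtm1, Lrrtm2 and Lrrtm3 each lie inside an alpha-catenin gene on the opposite strand. The alpha-catenins link cadherins to actin. Ctnna2, host of Lrrtm1, was counted 3025 and 2770 times in Ezh2 f/f, against 3055 and 3020 times in Ezh2 cKO (log2 -0.02, edgeR adjusted p = 0.815), and Ctnna1, host of Lrrtm2, had 606 and 583, then 728 and 704 counts (log2 0.17, edgeR adjusted p = 0.137). Ctnna3, host of Lrrtm3, had 3 to 10 counts in a library, below the filter, and was not tested. Inside Nrxn2 on the opposite strand lies Slc22a12, which fell from 238 and 200 to 37 and 37 counts while Nrxn2 had at least 9376 in every library, and Gm21986, which partly overlaps Nlgn3, fell from 61 and 69 to 22 and 27 counts. The genes in this paragraph that are not among the 9 were named for their position.

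Other genes of the same adhesion system were taken from 4 lists. Of 20 tested genes listed as ligands of neurexins, 10 were higher, 4 lower and 6 not past the threshold. Their median log2 fold change was 0.37 (0.15 if Ezh2 f/f replicate 1 is left out, 0.23 if Ezh2 cKO replicate 2 is). By the same rule, 34.7% of all genes tested were higher and 33.6% lower, and the list was not tested against these shares. Cerebellins and some C1q-like proteins are secreted adaptors that bind presynaptic neurexins. C1ql3 was counted 11 and 3 times in Ezh2 f/f, against 60 and 67 times in Ezh2 cKO (log2 3.07, SE 0.42, edgeR adjusted p = 1.83e-05, at most 0.00735 over the alternatives), and C1ql1 had 48 and 59, then 405 and 321 counts (2.66, SE 0.20, edgeR adjusted p = 4.33e-08). These were the largest increases of the list. The value of C1ql3 was 4.20 if Ezh2 f/f replicate 1 is left out, 2.47 if Ezh2 f/f replicate 2 is, and 1.10 with limma on log2(FPKM + 1). Cbln4 rose (log2 0.76, edgeR adjusted p = 0.00652, up to 0.104 over the alternatives) and Cbln1 fell (-0.63, edgeR adjusted p = 0.00643, up to 0.239 over the alternatives). Cbln1 passed in 7 of 12 alternatives, and without Ezh2 cKO replicate 2 it was at -0.39 (edgeR adjusted p = 0.17). Cbln4 missed the threshold without Ezh2 cKO replicate 1 (0.58, edgeR adjusted p = 0.104). Cbln2, counted 295 and 553 times in Ezh2 f/f against 366 and 365 times in Ezh2 cKO, was at -0.32 (edgeR adjusted p = 0.225). Single control libraries decided its value, which was -0.75 (edgeR adjusted p = 6.89e-07) without Ezh2 f/f replicate 1 and 0.26 (edgeR adjusted p = 0.150) without Ezh2 f/f replicate 2. Adgrl1, a latrophilin receptor, fell by 0.48 on the log2 scale (edgeR adjusted p = 5.86e-05).

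Proteins that modify these contacts gave 4 of 13 genes higher, 2 lower and 7 not past the threshold, with a median log2 fold change of 0.19. Over all genes tested 34.7% were higher and 33.6% lower, and nothing particular to this list is read from its counts. MDGA proteins bind neuroligins and block neurexins from them. Mdga2 rose (log2 0.70, SE 0.14, edgeR adjusted p = 4.93e-04, up to 0.0641 over the alternatives), and Mdga1, counted 2417 and 2193 times in Ezh2 f/f against 2855 and 2750 times in Ezh2 cKO, was at 0.19 (edgeR adjusted p = 0.0666, 0.0159 to 0.201 over the alternatives). Sparcl1, also called hevin, is secreted by astrocytes and bridges neurexins and neuroligins. It was counted 5309 and 4246 times in Ezh2 f/f, against 18347 and 17070 times in Ezh2 cKO, both far above the controls (log2 1.80, SE 0.09, edgeR adjusted p = 8.30e-10). Gpc4, an astrocyte-secreted glypican, went the other way, with 398 and 293, then 241 and 220 counts (log2 -0.67, SE 0.15, edgeR adjusted p = 0.00130). Among splicing regulators of neurexin transcripts, Khdrbs1 fell (log2 -0.47, edgeR adjusted p = 0.00120, up to 0.0845 over the alternatives) and Khdrbs3 was at 0.07 (edgeR adjusted p = 0.534); gene counts do not show the splice forms themselves. The calls of Mdga2 and Khdrbs1 were lost with limma on log2(FPKM + 1) without a filter.

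Intracellular scaffolds of both sides of the synapse had 16 of 23 genes higher, 1 lower and 6 not past the threshold, with a median log2 fold change of 0.77. Dlg4, the postsynaptic density scaffold that binds neuroligins, was counted 9660 and 9580 times in Ezh2 f/f, against 23463 and 20639 times in Ezh2 cKO (log2 1.10, SE 0.08, edgeR adjusted p = 4.01e-08). Gphn, the gephyrin scaffold of inhibitory synapses, had 467 and 462, then 941 and 1056 counts (log2 1.01, SE 0.11, edgeR adjusted p = 1.38e-06). Gphn and Nlgn2, whose proteins bind each other, thus moved in opposite directions in the same libraries. Apba1 and Lin7b, presynaptic adaptors in a complex with Cask, had the largest increases of the list (log2 2.30 and 2.04). Cask, the kinase-like scaffold that binds the tail of neurexins, was the 1 gene of the list that fell (log2 -0.35, SE 0.09, edgeR adjusted p = 0.00372, up to 0.0581 over the alternatives). The call of Cask was lost with limma on log2(FPKM + 1) without a filter (-0.25). Of 33 other synaptic adhesion genes, 13 were higher, 9 lower and 11 not past the threshold, and their median was -0.01, or 0.20 without Ezh2 f/f replicate 1, and again the shares over all genes tested were 34.7% and 33.6%. The corresponding median of the 9 genes was 0.70, and these medians were not tested against each other. In the same libraries 10 of 12 pan-neuronal markers were higher, with a median log2 fold change of 1.42, and their part in these values was not tested.

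**Figure D4:**
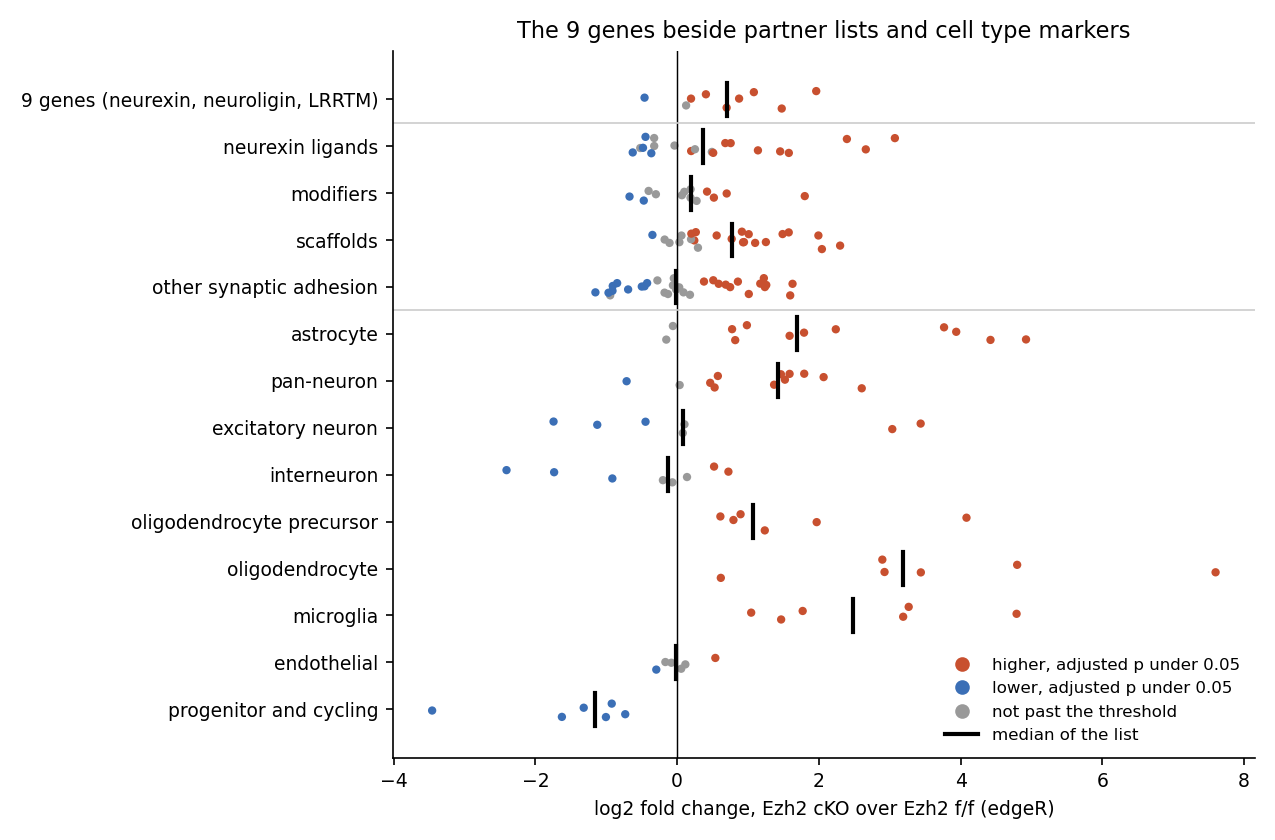
Log2 fold change (Ezh2 cKO over Ezh2 f/f, edgeR) of each tested gene of the 9, of the 4 partner lists and of the cell type marker lists, with 1 point per gene, coloured by whether it passed an adjusted p of 0.05, and a bar at the median of each list. The 9 genes (median 0.70) lie near the scaffolds (0.77) and below the medians of the oligodendrocyte (3.18), microglial (2.48), astrocyte (1.69), pan-neuronal (1.42) and oligodendrocyte precursor (1.07) markers, and above those of the excitatory neuron (0.08), endothelial (-0.01), interneuron (-0.13) and progenitor (-1.16) markers.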

How the data were processed

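RNA was sequenced by the authors from 4 libraries, 2 of Ezh2 f/f and 2 of Ezh2 cKO. The authors deposited the count of reads per gene in each library, not normalized, and FPKM values, which equal the count divided by 1 length per gene and by the library total. Their table also held deposited comparison columns (a mean signal, a ratio or fold, its log2 value, p-values), which were not used. The submitters' processing notes name TopHat2 2.0.12, Bowtie2 2.2.3, HTSeq 0.6.0 and mm9, without roles; the use of strand is not given in the sources used here.

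Counts of 29224 genes were filtered with filterByExpr in edgeR 4.0.16 (R 4.3.3), leaving 16793, scaled by TMM (factors 0.967 to 1.04) and tested with the quasi-likelihood test, the group being the only term, 2-sided, with Benjamini-Hochberg adjustment over all genes tested. An adjusted p under 0.05 was the threshold for a call. CPM are counts over the TMM-scaled library size. Standard errors are the log2 fold change divided by the root of F. Within each group the chi-square of the counts over its degrees of freedom was 8.92 and 5.68, above sampling noise, so every library counted as 1 sample. The alternatives used DESeq2 1.42.0, limma 3.58.1 on log2(FPKM + 1) and log2(FPKM + 0.1), other filters and scaling, the replicate number as a block and each library left out in turn. The code was tested on simulated data.

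The 9 genes and the lists were chosen with earlier results of these data known. The genes named from each partner list are those with the 2 highest and the 2 lowest log2 fold changes among those called, and genes whose proteins pair with 1 of the 9; any other was chosen after its values were seen. A further marker list is not reported here. Promoter sequences come from RefSeq (GRCm38.p6).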

Additional observations from a re-analysis of the deposited data

How the results depend on the processing

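The 12 alternatives kept the direction and the call of Nrxn3, Nlgn2, Lrrtm2, Lrrtm3, Lrrtm4 and Ezh2, and kept the whole-table counts within 1.5 times (4677 to 5795 genes higher, 4518 to 5762 lower), with 5 to 8 of the 9 genes higher and 1 lower. No scaling moved the median of all genes by more than 0.1 on the log2 scale. TMM and DESeq2's size factors centre most genes near 0 by construction, so this small shift does not show which scaling is right. Nrxn2 lost its call with DESeq2's Wald test (log2 0.18, adjusted p = 0.0645), DESeq2's size factors in edgeR (0.18, adjusted p = 0.0591), no filter on low counts (0.20, adjusted p = 0.0645) and the replicate number as a block (0.20, adjusted p = 0.0642), and over all 12 alternatives its adjusted p ran from 0.0129 to 0.173. With each library left out in turn its log2 fold change was 0.13 to 0.25, that of Nlgn3 -0.0058 to 0.26, turning sign without Ezh2 f/f replicate 1, and that of Lrrtm1 0.29 to 0.51. Nlgn1 lost its call with limma on log2(FPKM + 1) without a filter (0.49, adjusted p = 0.0804, range over the alternatives 1.02e-05 to 0.0804). In fits that leave 1 library in a group, that library is assumed to vary like the others.

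List medians moved as follows. For scaffolds the median was 0.75 with DESeq2 and with its size factors, 0.81 with a mean of at least 50 counts, 0.70 with limma on log2(FPKM + 1), with and without a filter, 0.84 with limma on log2(FPKM + 0.1), and 0.65 to 0.83 with a library left out. For neurexin ligands it was 0.26 with a mean of at least 50 counts, 0.20 with limma without a filter, and 0.15 to 0.36 with a library left out. For the other adhesion genes it was 0.044 with a mean of at least 50 counts, 0.046 and 0.051 with limma on log2(FPKM + 1) and log2(FPKM + 0.1), 0.053 with limma without a filter, and -0.058 to 0.20 with a library left out. For modifiers it was 0.25 and 0.27 with limma on log2(FPKM + 1) and log2(FPKM + 0.1). The cause of these shifts was not tested. The same alternatives were run for the 41 other named genes after their values had been seen, and 29 of them kept sign and call in every alternative that gave a value. Ctnna2, near 0, changed sign with a mean of at least 50 counts (0.011) and with limma on log2(FPKM + 1) (0.057, with and without a filter) and log2(FPKM + 0.1) (0.059), and Sox9 with the same limma fits (0.020, 0.020 and 0.026). With a library left out, the ranges that crossed 0 were -0.75 to 0.26 for Cbln2, -0.024 to 0.15 for Khdrbs3, -0.16 to 0.033 for Sox9 and -1.93 to 3.05 for Slitrk6.

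Replicate numbers are not known to pair the samples; deviations of same-numbered libraries correlated at 0.119, from 2 pairs. The block changed no call among the 9 genes other than that of Nrxn2. Shares per kilobase of counts were not run as an alternative, since FPKM are counts over 1 length per gene and such shares would be identical by construction. Lrrtm4 and Lrrtm2 rest on the fewest counts.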

Other observations

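Among the other synaptic adhesion genes, families went in different directions, and the genes in this paragraph other than Cadm2, Il1rapl1, Lrfn4 and Lrfn3 were chosen after their values were seen. The SLITRK genes encode postsynaptic partners of presynaptic receptor phosphatases. Slitrk1, Slitrk2, Slitrk3, Slitrk4 and Slitrk5 were all higher in Ezh2 cKO, with log2 fold changes of 0.69, 1.26, 1.22, 0.86 and 0.38 (edgeR adjusted p at most 0.00485). Slitrk5 missed the threshold without Ezh2 f/f replicate 2 (0.26, adjusted p = 0.0724) and without Ezh2 cKO replicate 1 (0.37, adjusted p = 0.0536). Slitrk6, with 1 to 33 counts per library, was at -0.94 (edgeR adjusted p = 0.335), and its sign turned without Ezh2 f/f replicate 2. The SALM genes Lrfn4, Lrfn3 and Lrfn1 fell by 1.15, 0.97 and 0.69 on the log2 scale, while Lrfn5 rose by 0.51 and Lrfn2 was at 0.18 (edgeR adjusted p = 0.163). The presynaptic phosphatase Ptprs, counted 18924 and 15291 times in Ezh2 f/f against 10505 and 9741 times in Ezh2 cKO, fell by 0.85. Cadm2 and Il1rapl1, adhesion proteins of the immunoglobulin superfamily, had the largest increases of the list, 1.63 and 1.60. Like the neuroligins, the netrin-G ligand family was mixed, with Lrrc4 (1.01) and Lrrc4c (0.75) higher and Lrrc4b lower (-0.91).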
